A study of Anas platyrhynchos with 3 samples.

Results

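Glycolysis splits glucose into pyruvate through a chain of cytosolic enzymes, and lactate dehydrogenase can then turn pyruvate into lactate and regenerate the NAD+ that the chain consumes. Its early steps spend ATP to trap and phosphorylate the sugar, and its later steps, from glyceraldehyde phosphate dehydrogenase on, return ATP and NADH. Stratified epithelia such as the epidermis are known for a strong use of glycolysis. In birds some of these enzymes have a second life in the eye: duck lens holds large amounts of LDHB protein as epsilon-crystallin and of alpha-enolase, the product of ENO1, as tau-crystallin.

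The genes described here were those of 10 named glycolytic enzyme genes that the gene table listed under their symbols. They were 7 of 14938 genes in the table, namely GPI, PFKP, ALDOC, GAPDH, PGK1, ENO1 and LDHB. HK1, HK2 and LDHA were not analysed here, so the first step of the pathway is covered here only by HK3 and by the ADP-dependent enzyme gene ADPGK, and the A subunit of lactate dehydrogenase is not covered. Polyadenylated RNA was sequenced from whole bill skin of Pekin duck (Anas platyrhynchos) embryos incubated at 37 °C. The embryos were at embryonic day 24 to 26, taken 24 to 48 hours before hatching, after the inner shell membrane had been broken. The study asked how touch is sensed in this skin, and it holds 3 biological replicates of 1 untreated group. Genes were therefore compared with one another within libraries, and each gene was described across libraries.

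The libraries of replicates 1, 2 and 3 held 32247700, 30630039 and 25268141 counted reads. All 7 genes were far above the range where counting error matters, with 4763 to 60928 reads in any library, and all passed the minimum of 1 FPKM in every library that 10605 genes passed. FPKM are fragments per kilobase of transcript, scaled to library depth, so they can be compared between genes as far as the gene lengths used by the authors hold. Replicate 2 stood apart in its cell type markers. The 8 measured of 9 dermal fibroblast markers summed to 3700.2, 6476 and 3803 FPKM in replicates 1, 2 and 3, and the 8 measured of 11 keratinocyte markers to 4711, 4028 and 4548 FPKM. None of these markers was under the minimum. In whole tissue, fewer cells of a type and less RNA per cell cannot be told apart.

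ENO1 and GAPDH were the most abundant of the 7 genes, at levels that did not differ detectably from each other, and PFKP was the lowest. ENO1, encoding alpha-enolase, which forms phosphoenolpyruvate, was at 1140.5, 885 and 1180.4 FPKM in replicates 1, 2 and 3, a mean of 1069 ± 160.1 (SD, n = 3 for this and all later values). GAPDH, the dehydrogenase that makes the NADH of the chain, was at 1059, 1083 and 1035 FPKM, a mean of 1059 ± 23.8. These are ranks 85 and 88 of all genes in the table. ENO1 was lower in replicate 2 than in the other libraries, while GAPDH was nearly level, and the values of both genes overlapped.

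**Figure D1:**
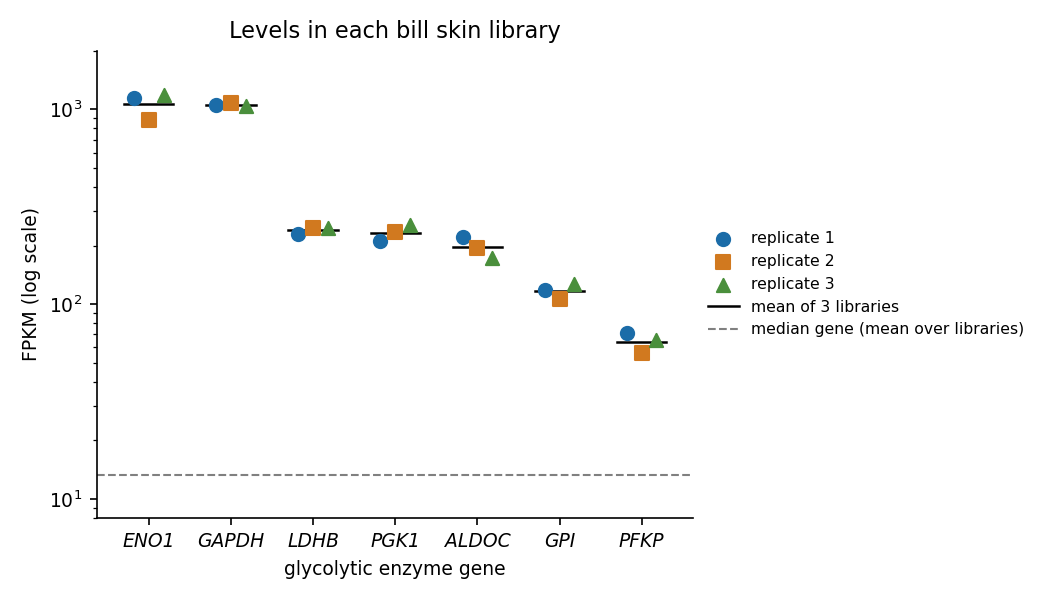
FPKM of the 7 glycolytic enzyme genes on a log axis, with 1 symbol per library, a bar for the mean and a dashed line at the mean library median of the genes over the minimum. ENO1 and GAPDH lie together near the top, LDHB, PGK1 and ALDOC form a middle tier, and GPI and then PFKP lie below it, all above the median gene.

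LDHB, PGK1 and ALDOC formed a middle tier. LDHB encodes the B (heart-type) subunit of lactate dehydrogenase, and it was at 229, 247 and 247 FPKM, a mean of 241 ± 10.6. PGK1, encoding the kinase that makes the first ATP of the chain, was at 211, 235 and 253 FPKM, a mean of 233 ± 21.2. ALDOC encodes aldolase C, the isoform best known from mammalian brain, which cleaves fructose bisphosphate, and it was at 221, 194 and 172 FPKM, a mean of 196 ± 24.3. The ranges of LDHB and PGK1 overlapped, and so did those of PGK1 and ALDOC.

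The genes of the early steps were lower. GPI encodes phosphoglucose isomerase, which turns glucose 6-phosphate into fructose 6-phosphate, and it was at 118, 107 and 127 FPKM, a mean of 117 ± 10.3. PFKP encodes the platelet-type subunit of phosphofructokinase, the main point of control of the pathway, and it was at 71.1, 56.1 and 65.6 FPKM, a mean of 64.3 ± 7.64. No library of either gene reached the lowest value of ALDOC, and the ranges of GPI and PFKP did not overlap.

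Each gene was set against the library's median gene, which stood at 13.3, 13.1 and 13.3 FPKM in replicates 1, 2 and 3. In limma's moderated test with Benjamini-Hochberg adjustment over all genes, 7 of 7 were above it in 3 of 3 libraries, where 43.7% of the 10605 genes were above and 43.6% below. ENO1 was 79.5-fold above it (log2 6.31 ± 0.11 SE, adjusted p = 3.3e-07) and PFKP 4.81-fold above (log2 2.26 ± 0.10 SE, adjusted p = 4.3e-06). LDHB was 18.1-fold, PGK1 17.4-fold, ALDOC 14.6-fold and GPI 8.79-fold above the median gene. Together the 7 genes took 0.518 ± 0.0427% of the summed FPKM of all genes, and ENO1 and GAPDH made up 71.4 ± 1.09% of that share.

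The order of the 7 genes was tested in all 21 pairs, as log2 ratios within each library, with p-values adjusted over all genes set against the same gene. Such a fit called 99.5% of genes different from ENO1, 99.6% from GAPDH, 98.7% from LDHB, 98.6% from PGK1, 98.1% from ALDOC, 96.3% from GPI and 93.3% from PFKP, so most pairs of genes differ in level in this tissue. Of the 21 pairs, 17 differed and 4 did not. The 4 pairs without a detectable difference were ENO1 over GAPDH, with a ratio of 1.00 and a 95% interval of 0.771 to 1.30 (adjusted p = 0.99), LDHB over PGK1 at 1.04 and 0.828 to 1.30 (adjusted p = 0.71), PGK1 over ALDOC at 1.19 and 0.903 to 1.58 (adjusted p = 0.17), and LDHB over ALDOC at 1.24 and 0.958 to 1.6 (adjusted p = 0.089). LDHB was nevertheless above ALDOC in 3 of 3 libraries.

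**Figure D2:**
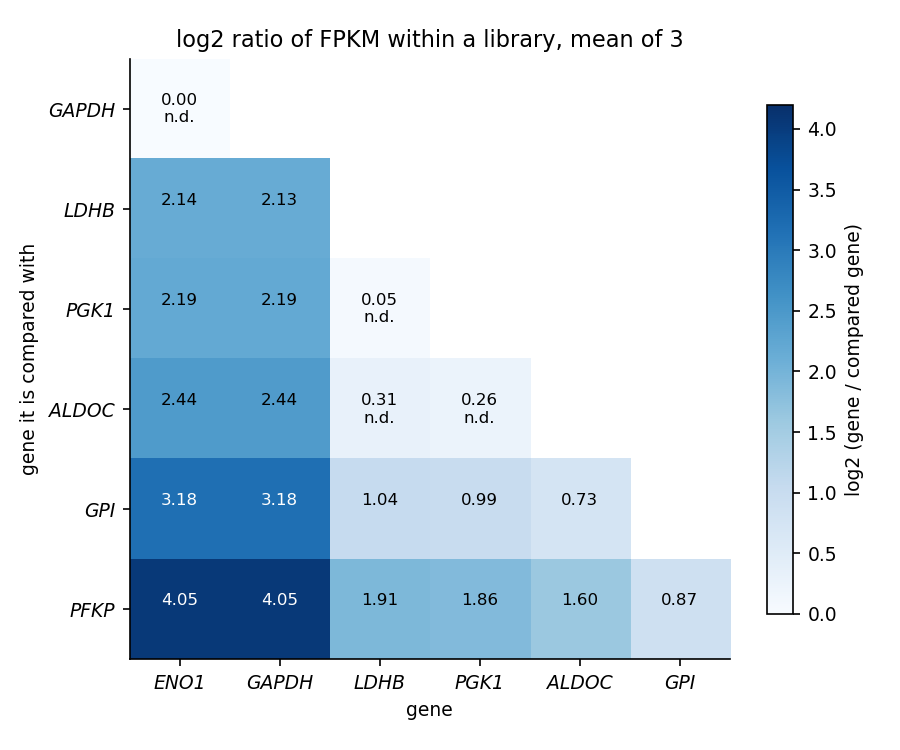
Mean log2 ratio of FPKM within a library for each of the 21 pairs, the gene in the column over the gene in the row, with n.d. where the moderated test found no difference. The ratios run up to 4.05 for ENO1 and for GAPDH over PFKP, and the 4 pairs marked n.d. lie within the top tier and within the middle tier.

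Between neighbours in the order, the step from GAPDH to LDHB was the widest. GAPDH exceeded LDHB 4.62-, 4.38- and 4.19-fold in replicates 1, 2 and 3, a ratio of 4.39 (log2 2.13 ± 0.13 SE, adjusted p = 3.2e-06). ALDOC exceeded GPI 1.87-, 1.82- and 1.36-fold (log2 0.73 ± 0.16 SE, adjusted p = 0.0032), and GPI exceeded PFKP 1.66-, 1.90- and 1.94-fold (log2 0.87 ± 0.14 SE, adjusted p = 0.00076). ENO1 and GAPDH were each 16.5-fold above PFKP. The lower part of this order rests on gene length. The implied lengths are 1106 bases for LDHB and 1096 for ALDOC, against 3069 for GPI, and in reads without length correction LDHB lay below GPI (log2 -0.43, adjusted p = 0.024), as did ALDOC (log2 -0.75, adjusted p = 0.0043).

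The other genes of the chain fill the steps between. PGAM1, the phosphoglycerate mutase, was at 405, 419 and 449 FPKM, between the top and the middle tier. TPI1, the triosephosphate isomerase, was at 209, 242 and 248 FPKM, and PKM, the pyruvate kinase that forms pyruvate and ATP, was at 236, 212 and 266 FPKM. TPI1 lay in the range of the middle tier pooled over libraries, 172 to 253 FPKM, and so did PKM in replicates 1 and 2. In replicate 3 PKM lay above that range.

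From aldolase to lactate dehydrogenase, no step thus had summed FPKM of its genes analysed here below 196 ± 24.3. The isomerase step was at 117 ± 10.3 and the phosphofructokinase step at 93.5 ± 8.56 FPKM.

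**Figure D3:**
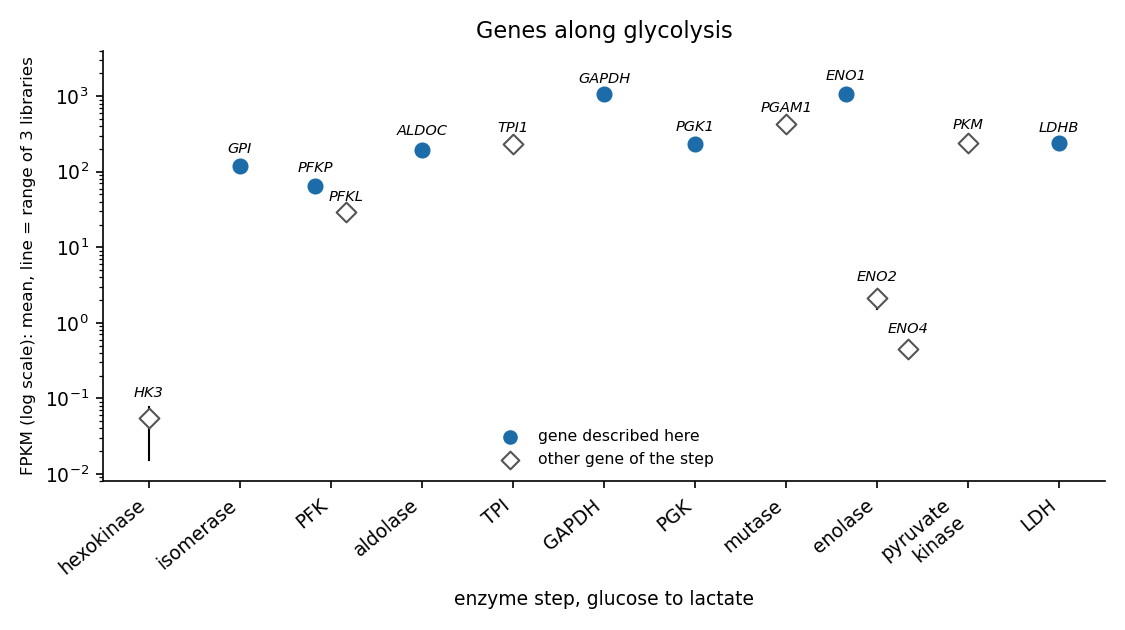
Mean FPKM of the genes analysed by enzyme step from glucose to lactate, on a log axis, with a line for the range of the 3 libraries. The genes described here are filled circles and other measured genes open diamonds. At the enolase step the other measured genes lie far below ENO1, while PFKL lies close under PFKP. HK1, HK2 and LDHA are not shown.

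Of 13 ratios of these genes to other genes, chosen after their values were seen, 10 differed in the same kind of test. Its fits called 86.3% of genes different from PFKL, 90.0% from ENO2, 99.4% from PGAM1, 98.6% from TPI1, 98.5% from PKM, 94.9% from PDHA1, 95.3% from PDHB and 98.1% from MDH1. ENO1 and GAPDH were each 2.5-fold above PGAM1, PGK1 was at 0.549 of PGAM1, and GAPDH was 4.56-fold above TPI1. PGK1 could not be told from TPI1, at a ratio of 1.00 with a 95% interval of 0.802 to 1.25, nor ALDOC from TPI1 at 0.838 (0.635 to 1.11), nor LDHB from PKM at 1.02 (0.800 to 1.29). LDHB and PKM catalyse consecutive reactions.

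Isozyme make-up could be given for enolase and phosphofructokinase. Of the measured enolase transcripts, from ENO1, ENO2 and ENO4, 99.8 ± 0.0829% were ENO1, and ENO3 was not analysed here. The neuronal gene ENO2 was at 1.53, 2.60 and 2.20 FPKM and ENO4 at 0.532, 0.415 and 0.397 FPKM, which places ENO1 490-fold above ENO2 (95% interval 337 to 712, adjusted p = 4.6e-07).

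Phosphofructokinase was shared between genes. PFKP made up 70.7, 66.7 and 68.5% of its measured transcripts in replicates 1, 2 and 3, and PFKL, the liver-type subunit, the rest. PFKL, whose row was named through its gene number, was at 29.4, 27.9 and 30.2 FPKM. PFKP exceeded it 2.19-fold (log2 1.13 ± 0.14 SE, adjusted p = 0.00026), in 3 of 3 libraries, and PFKM was not analysed here. Of the hexokinase genes, HK3 had 5, 1 and 4 reads.

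The spread of each of the 7 genes between the 3 libraries was described without a test. GAPDH, widely used as a reference transcript, had a coefficient of variation of 2.25%, where counting error alone would give 0.440%. Among 112 other genes within 2-fold of its level, 1.79% had a smaller SD of log2 values, among them the ribosomal protein gene RPL34. LDHB had a coefficient of variation of 4.38%, GPI 8.77%, PGK1 9.09%, PFKP 11.9%, ALDOC 12.4% and ENO1 15%. The median of the 7 was 9.09%, against 11.7% over all genes that passed the minimum.

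ENO1, GPI and PFKP were lowest in replicate 2, by 0.26, 0.13 and 0.19 below their own log2 means. PGK1 and LDHB were lowest in replicate 1, and ALDOC and GAPDH in replicate 3. Of the 7 genes, 42.9% were thus lowest in replicate 2, against 36.6% of all genes over the minimum, and 4 (57.1%) were highest in replicate 3, against 32.9% of all genes. GAPDH is the exception to the order of libraries under other scalings, being lowest in replicate 1 after scaling by total counts, while the highest and lowest libraries of the other 6 were the same under total counts and DESeq2 size factors. Without replicate 2 the median SD of log2 values of the 7 genes was 0.0789, against 0.13 with all libraries, and that of ENO1 was 0.035 against 0.23. Without replicate 1 the SD of LDHB was 0.00082, against 0.064.

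**Figure D4:**
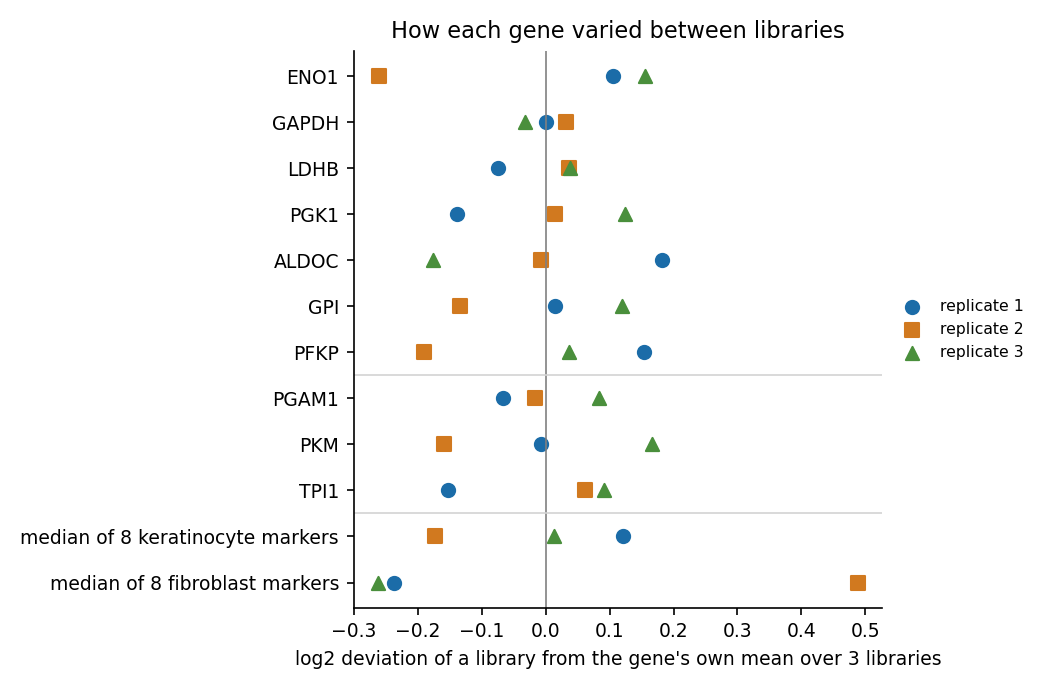
Deviation of each library from a gene's own mean over the 3 libraries, in log2 units, for the 7 genes, for 3 further glycolytic genes and for the medians of 2 marker lists. Replicate 2 is lowest for ENO1, GPI, PFKP, PKM and the keratinocyte markers and highest for the fibroblast markers, while GAPDH stays within 0.033 of its mean.

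Keratinocyte markers were also mostly lowest in replicate 2, as ENO1, GPI and PFKP were. Their median deviation was 0.12, -0.17 and 0.01 in replicates 1, 2 and 3, with 7 of 8 lowest in replicate 2, while all 8 fibroblast markers were highest there. The summed keratinocyte markers leave out KRT5, KRT14 and KRT15, which were not analysed here. The largest parts of the sum were SFN and PERP, at means of 1810 and 1024 FPKM. SFN, at 1946, 1799 and 1685 FPKM in replicates 1, 2 and 3, was lowest in replicate 3. Per unit of summed keratinocyte markers, ENO1 stood at 0.242, 0.220 and 0.260, and its coefficient of variation was 8.27% in place of 15%. On that scale the coefficient was 4.10% in place of 11.9% for PFKP and 5.37% in place of 8.77% for GPI. These genes were grouped because they were lowest in replicate 2, and the summed keratinocyte markers were lowest there too. Dividing by that sum tends to narrow the spread of any gene lowest there, so the smaller coefficients were no test of keratinocyte content.

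The other 4 genes varied more per unit of keratinocyte markers than in FPKM. The coefficient of variation was 10.3% in place of 2.25% for GAPDH, 11.7% in place of 4.38% for LDHB, 13.5% in place of 9.09% for PGK1 and 12.6% in place of 12.4% for ALDOC. For ALDOC the coefficient hardly changed. Dividing by a sum that was lowest in replicate 2 raises replicate 2, and so can widen the spread of genes not lowest there. The larger coefficients were therefore no test of keratinocyte content either. The part of keratinocyte content in these differences was not tested.

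ALDOC, at 221, 194 and 172 FPKM in replicates 1, 2 and 3, ranked the libraries in the same order as the summed markers of 3 cell types. The 5 measured of 10 skeletal muscle markers summed to 75.9, 46.3 and 21.7 FPKM, although TNNT3 and TTN were under the minimum and did not keep that order. The 6 endothelial markers summed to 109, 93.4 and 89.2 FPKM, although only KDR and CLDN5 among them kept that order. The 6 neuron markers summed to 37.3, 36.1 and 23.6 FPKM, with SNAP25, STMN2, ELAVL4 and NEFM under the minimum. Among the neuron markers only UCHL1, at 34.4, 31.0 and 19.1 FPKM, kept that order. The median log2 deviation of the neuron markers was -0.039, 0.29 and 0.13 in replicates 1, 2 and 3. The summed keratinocyte, fibroblast, erythroid, Schwann and cartilage markers did not keep that order. With 3 libraries few orders are possible, so a shared order is easily met. The part of these cell types in the values of ALDOC was not tested.

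Only genes with a symbol were compared with ENO1, LDHB and PFKP in level over the 3 libraries, by Euclidean distance of log2 values. Of these, the genes most like ENO1 were PERP (0.16), POF1B (0.20) and GJA1 (0.22). PERP, a keratinocyte adhesion gene and one of the markers above, was at 1023, 868 and 1182 FPKM, and GJA1, the gap junction gene for connexin 43, at 1157, 772 and 1264 FPKM. Nearest to LDHB were PDAP1 (0.061), CTNNB1 (0.087) and BTF3L4 (0.094), and nearest to PFKP were AKTIP (0.092), YOD1 (0.093) and LAMTOR5 (0.098).

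The 9 related lists of genes put these levels in context. Their counts and medians cover only the genes analysed here. These were 9 of 22 for other glycolysis, 13 of 16 for regulators and 4 of 10 for gluconeogenesis. They were 7 of 9 for pentose phosphate, 14 of 17 for glycogen and 16 of 18 for carriers. For NADH shuttles, the citric acid cycle and the hypoxia response they were 9 of 10, 14 of 18 and 25 of 28. Over all 7 glycolytic genes the median was 233 FPKM, against 6.94 FPKM over all genes in the table. Of 9 further glycolytic genes analysed, 7 passed the minimum. Of these, 4 (57.1%, against 43.7% of all genes) were above the median gene, namely PGAM1, PKM, TPI1 and PFKL. ENO2 (14.3%, against 43.6% of all genes) was below it, and ADPGK and BPGM, at 14.6 ± 1.86 and 14.3 ± 1.66 FPKM, were not apart. ADPGK encodes an ADP-dependent glucokinase and BPGM the enzyme that makes 2,3-bisphosphoglycerate.

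The citric acid cycle, which oxidises the acetyl group that pyruvate can yield, was moderately high. All 14 measured genes of its list, which also holds the cytosolic forms ACO1 and IDH1, were above the median gene, against 43.7% of all genes. The list median was 62.2 FPKM. The highest were the succinate dehydrogenase genes SDHD at 149 ± 14.1 and SDHB at 117 ± 4.80, IDH1 at 96.6 ± 8.58 and SUCLA2 at 81.7 ± 3.73 FPKM. Of the 14, 10 were highest in replicate 2 (71.4%, against 34% of all genes). This was not particular to the cycle. Of 10 carrier genes over the minimum, described below, 7 (70%) were highest there, as were all 8 fibroblast and all 5 measured Schwann cell markers.

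At the branch where pyruvate leaves glycolysis, LDHB exceeded the genes of pyruvate dehydrogenase. PDHA1, its catalytic alpha subunit, was at 71.6, 85.3 and 81.5 FPKM, and PDHB, its beta subunit, at 80.4, 86.9 and 87.6 FPKM. LDHB was 3.04-fold above PDHA1 (log2 1.6 ± 0.13 SE, adjusted p = 2.3e-05) and 2.84-fold above PDHB (log2 1.5 ± 0.13 SE, adjusted p = 2.8e-05), in 3 of 3 libraries. It was also 1.39-fold above MDH1, the cytosolic malate dehydrogenase (log2 0.47, adjusted p = 0.011). With replicate 3 left out this ratio was nearly unchanged (log2 0.45) but no longer passed the threshold (adjusted p = 0.060). In reads without length correction the ratio stood at log2 -0.041.

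Regulators and carriers were mixed. Each count in the lists here and below reads against the 43.7% of all genes above the median gene and the 43.6% below it. The list of regulators of glycolysis also holds subunits and regulators of pyruvate dehydrogenase. Of its 13 measured genes, 7 (53.8%) were above the median gene, a share near that of all genes. Among these, PDHA1, PDHB, PDHX, DLAT and DLD encode subunits of the pyruvate dehydrogenase complex and not regulators. DLD, the lipoamide dehydrogenase subunit, was at 47.3 ± 2.64 FPKM. The regulators above the median gene were TIGAR and PDK3. PDK3, a kinase that inactivates pyruvate dehydrogenase, was at 50.8 ± 1.31 FPKM. PFKFB2, PFKFB3, PDP1 and PDP2 were below it, and PDK1 and PDK4 were not apart.

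Among 16 measured carrier genes 10 passed the minimum, with 6 above the median gene (60%) and 4 below (40%). BSG, the chaperone of lactate carriers, was at 140.1 ± 24.0 FPKM, the mitochondrial pyruvate carrier genes MPC2 and MPC1 at 117 ± 3.92 and 57.7 ± 14.6 FPKM, and the glucose transporter gene SLC2A8 at 36.2 ± 9.46 FPKM. SLC2A1, the main glucose transporter of many barrier tissues, was at 21.3 ± 2.33 FPKM and the lactate carrier gene SLC16A1 at 28.9 ± 4.26, both above the median gene, while SLC16A3 was below it at 7.24 ± 0.468 FPKM.

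Among pathways that share intermediates with glycolysis, 6 of 7 pentose phosphate genes (85.7%) were above the median gene, and H6PD was below it. TALDO1 was at 97.3 ± 23.6, PGD at 80.2 ± 7.43, PGLS at 68.1 ± 9.35 and TKT at 63.4 ± 1.62 FPKM. The value of PGLS rests on an implied length of 320 bases. Of 14 glycogen genes 13 passed the minimum, with 4 above (30.8%; GYG1 at 32.6 ± 1.87, PGM2 at 25.2 ± 0.540, UGP2 at 23.6 ± 2.13 and PHKB at 21.0 ± 1.2 FPKM) and 6 below. Of 9 genes of NADH shuttles 8 passed it, with 5 above (62.5%) and 2 below, led by MDH1 at 174 ± 8.22, MDH2 at 117 ± 1.26, GOT2 at 67.2 ± 2.97 and SLC25A13 at 25.6 ± 2.55 FPKM.

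Of 4 measured gluconeogenic genes, only SLC37A4 passed the minimum, at 7.83 ± 2.25 FPKM, and it was below the median gene. G6PC2 was at 0.463 ± 0.180 FPKM, G6PC at 0.191 ± 0.0286 and PCK1, a key enzyme of gluconeogenesis in liver, had at most 1 read in a library.

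**Figure D5:**
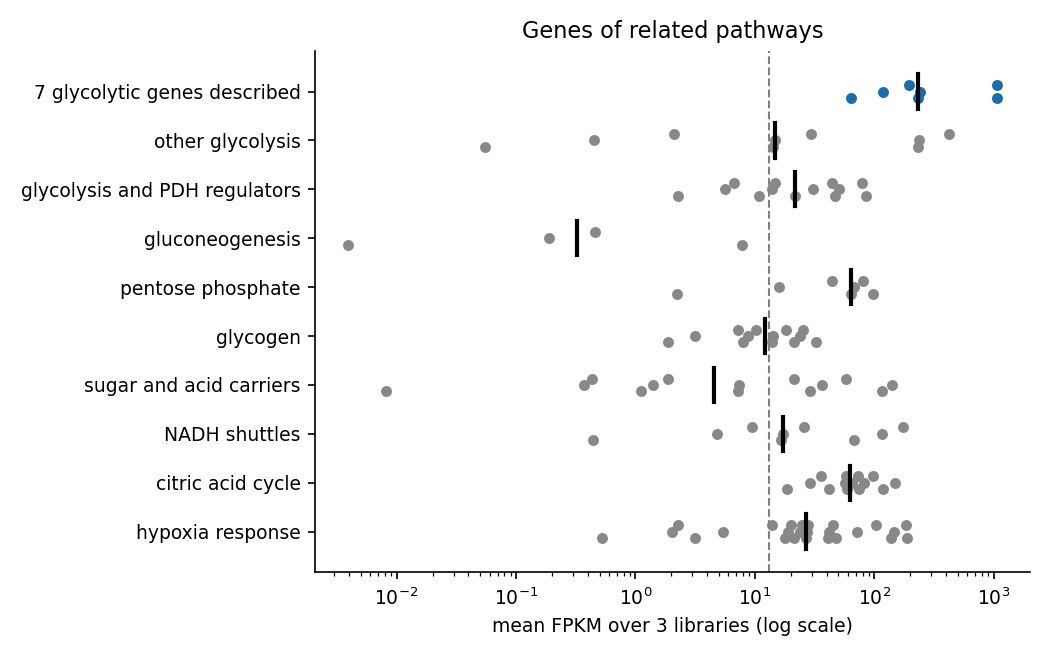
Mean FPKM on a log axis of the genes analysed, for the 7 described and of the 9 related lists, with a black bar at each list's median over all genes analysed and a dashed line at the median gene of a library. GYS2, SLC2A6 and SLC16A8, at 0 in every library, are not drawn. The list medians run from 0.327 FPKM for gluconeogenesis to 63.4 for the pentose phosphate pathway, below the 233 FPKM of the 7 genes.

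Glycolytic genes are classic targets of the hypoxia-inducible factors. Of 25 measured genes of the hypoxia response 24 passed the minimum, with 19 above the median gene (79.2%) and 4 below. The highest were DDIT4 at 187 ± 35.3, BNIP3L at 182 ± 4.2, NDRG1 at 147 ± 15.2 and EGLN1, an oxygen-sensing prolyl hydroxylase, at 139 ± 10.6 FPKM. The first place of DDIT4 rests on an implied length of 340 bases. DDIT4 had 1539 to 2378 reads in a library, against 15288 to 19670 for BNIP3L. HIF1A, the inducible factor's alpha subunit, was at 41.5 ± 4.24 FPKM, and VEGFA, the vessel growth factor gene, lay between 16.98 and 23.7 FPKM, both above the median gene. The labels give no oxygen treatment, and transcript levels of 1 group do not show whether any of these genes was induced.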

How the data were processed

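Raw counts per gene and FPKM were deposited by the authors in 1 table, per the file headers. Libraries were strand-specific, per the labels' protocols. Tools listed without roles in the submitters' processing notes are STAR 2.5.4b, Subread 1.6.2, featureCounts, edgeR 3.22.3, Trimmomatic 0.36 and CASAVA 1.8.2. The genome build is not given in the sources used here. Counts, FPKM and edgeR's TMM factors implied a whole-number gene length, within 0.01 bases, for 14343 of 14343 genes with reads. Of 3347 identifiers without a symbol, 730 took one by gene number from the gene table of the IASCAAS_PekinDuck_T2T assembly, 8 of them in the lists.

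Values were analysed as log2(FPKM + 0.1), a scale that understates folds of low genes, for genes that reached 1 FPKM in every library. Tests were two-sided at an adjusted p of 0.05, run with limma 3.58.1 (R 4.3.3), with edgeR 4.0.16 for TMM factors and DESeq2 1.42.0 for size factors. A single group leaves no contrast for a count model. Ratios to 1 gene used a variance prior from disjoint pairs of genes neighbouring in mean level. All p-values measure only how far these 3 samples vary. Both tests were checked for recovery of known folds on data simulated with independent genes, which lack shifts shared by genes between libraries. Members, lists and pairs were chosen with earlier results of these data known. Named were all members, isozymes of their steps, the 4 highest genes of each list and the 3 genes with a symbol nearest in level. ADPGK, BPGM, PDK1, PDK4, PDP1, PDP2, PFKFB2, PFKFB3, TIGAR, PDHX, DLAT, H6PD, SLC2A1, SLC16A1, SLC16A3, HIF1A, VEGFA, RPL34, SFN, KDR, CLDN5 and UCHL1 were named after their values were seen. A result that this rule names is not reported here. Figures used Python 3.11.15 and matplotlib 3.10.9.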

Additional observations from a re-analysis of the deposited data

How the results depend on the processing

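All 7 genes lay above the median gene under each pseudocount, minimum, prior and reference tried and without any 1 library, and 17 of 21 pairs differed under each alternative. The set of 17 pairs changed without length correction. On reads, LDHB over PGK1 (log2 -0.52, adjusted p = 0.0097) and PGK1 over ALDOC (log2 0.84) differed. PGK1 over GPI (log2 0.085) and ALDOC over PFKP (0.24) then did not. LDHB over GPI (log2 -0.43) and ALDOC over GPI (-0.75) still differed but turned sign. Outside the 21 pairs, PGK1 over TPI1 (log2 0.56) and LDHB over PKM (-0.69) then differed, and LDHB over MDH1 (-0.041) did not. PFKP made up 73.5% of measured phosphofructokinase reads and ENO1 99.7% of measured enolase reads. The alternative's own construction, which drops gene length, is what moves these values.

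Leaving out 1 library turned the sign of ratios near 1, which ran from log2 -0.092 to 0.15 for ENO1 over GAPDH, -0.015 to 0.025 for PGK1 over TPI1 and -0.073 to 0.090 for LDHB over PKM, none past the threshold. PDK1 against the median gene ran from log2 -0.016 to 0.19 and PDK4 from -0.010 to 0.29. The median SD of the 7 genes ran from 0.0789 to 0.12. With other minimums the median gene itself moves. Without a minimum, 3 further glycolytic genes were below it and SLC37A4 (log2 0.15) and SLC16A3 (0.078) turned sign, while ADPGK (log2 1.08, adjusted p = 0.00090), BPGM (1.05, 0.00093), PDK1 (1.00, 0.0016) and PDK4 (1.07, 0.0030) were above it. At 5 FPKM, 2 were below it, ADPGK (log2 -0.47) and BPGM (-0.50), and PDK1 (-0.54), PDK4 (-0.47) and VEGFA (-0.023, adjusted p = 0.85, no longer apart) turned sign. Against the mean in place of the median, BPGM was at log2 -0.0065 and PDK1 at -0.051. Without a minimum and at 5 FPKM, glycogen genes above numbered 8 and 2 in place of 4, and carrier genes below 8 and 2 in place of 4. Genes below numbered 3 in place of 6 for glycogen, 1 in place of 4 for regulators, 3 in place of 1 for gluconeogenesis and 1 in place of 2 for NADH shuttles without a minimum, and 2 in place of 4 for the hypoxia list at 5 FPKM, where UGP2, PHKB and SLC2A1 were no longer apart from the median gene. No paired analysis was possible because there is 1 group. Depth did not limit the 7 genes, but HK3, with at most 5 reads, is dominated by counting error.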
